A study of Papilio xuthus with 16 samples.

Results

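A set of 55 sequences of the swallowtail *Papilio xuthus* gave a higher mean signal in white or green larval epidermis than in the dark markings beside it. The dark markings were black, eyespot or V-shaped, and genes named for the families listed below were left out by rule. The microarray held probes for 3272 *P. xuthus* sequences in all. The 55 were selected on the signals themselves: at least 1 probe had a mean signal above 1000 on the pale side and more than 2-fold that of the dark side, over either the 6 arrays of the third instar or the 10 arrays of the fourth instar. Of 62 sequences that passed, 0 were left out because another probe ran the opposite way, and 7 were left out because they were named as yellow, takeout, bilin-binding, cuticular, osiris or ribosomal protein genes. Among the 55, 42 passed on the fourth instar arrays only, 11 on the third instar arrays only and 2 on both. Only 6 of the 55 could be given a gene name from the tables at hand, which name 401 of the 3272. The other 49 are called here by the sequence identifier of their probes, and whether any of them belongs to 1 of those families was not tested.

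The larvae, which were bought, donated or collected in the field, were raised on leaves of a rutaceous tree. Total RNA was taken from dissected pieces of epidermis. White pieces of the second to the fourth abdominal segments, labelled with Cy3, were compared with black pieces of the fourth and the fifth, labelled with Cy5. They were taken in the intermolt of the third instar and, during its molt, 0, 4, 8, 11 and 16 h past head capsule slippage. Head capsule slippage is the moment at which the old head cuticle loosens, and it starts the clock of the molt. In the fourth instar, unmarked green thorax (Cy3) was compared with eyespot (Cy5), and unmarked green abdomen (Cy3) with V-shaped markings (Cy5). Here the stages were intermolt and 1, 4, 10 and 13 h of the molt. The third molt still leads to the black-and-white pattern that mimics bird droppings, whereas the fourth molt leads to the green cryptic pattern. There was 1 array for each stage and comparison and no dye swap, so the color of the epidermis cannot be told apart from the dye or from the segment dissected, and the stages served as replicates. Whether the samples were pools of larvae, and of how many, is not given in the sources used here.

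The epidermis of a molting caterpillar lays down a new cuticle under the old one. It secretes structural and shaping proteins in successive waves, takes up or makes the pigments of the next instar, and degrades and resorbs part of the old cuticle. Green in such larvae comes from blue and yellow pigments bound to proteins in the epidermis, and black from melanin deposited in the cuticle. Among the named sequences were dusky-like (Px-0364), which in *Drosophila* encodes a membrane protein with a zona pellucida domain that shapes the apical matrix; lipase 4 (Px-0342), of a family that cleaves ester bonds of lipids; a glucosyl/glucuronosyl transferase (Px-0380), of a family that couples sugars to small lipophilic molecules; Px-0111, similar to the *Drosophila* gene CG3699; Px-0139, similar to CG5731; and Px-0017, an unknown secreted protein.

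The probe sequences that the study lists for 4 of the named sequences, all of 60 bases, are given here 5′ to 3′. The array held 6 probes for Px-0111 and 3 for Px-0364, more than are listed. The listed sequences were not matched to the measured probes, so the probe behind a value given below may not be among them. Capitals mark the longest run that a probe shared with any other of the 507 genes whose sequence was searched, and these runs were 11 to 13 bases long.
Px-0111 probe 1: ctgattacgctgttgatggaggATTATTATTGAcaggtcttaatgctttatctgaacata
Px-0111 probe 2: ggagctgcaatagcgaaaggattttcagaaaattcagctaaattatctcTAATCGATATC
Px-0342 probe 1: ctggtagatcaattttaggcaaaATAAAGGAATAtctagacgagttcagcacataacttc
Px-0342 probe 2: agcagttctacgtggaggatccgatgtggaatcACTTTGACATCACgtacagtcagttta
Px-0364 probe 1: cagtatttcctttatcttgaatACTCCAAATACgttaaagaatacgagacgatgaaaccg
Px-0364 probe 2: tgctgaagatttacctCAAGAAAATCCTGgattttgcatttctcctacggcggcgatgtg
Px-0380 probe 1: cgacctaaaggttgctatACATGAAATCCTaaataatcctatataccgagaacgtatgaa
Px-0380 probe 2: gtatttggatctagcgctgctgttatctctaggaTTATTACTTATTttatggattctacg
Only exact matches were searched, so near matches elsewhere were not tested. The other 2 named sequences had runs within the same range.

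Signals are the scanner software's processed intensities, background-subtracted and dye-normalized within each array, and the log2 ratio is that of the pale side over the dark side. The deposited ratios run the other way, dark over pale. Between 77.3% and 88.0% of the probes were well above background by the scanner's own noise estimate in a sample, and signals below that level only bound the expression. Markers of other tissue were present in the dissected pieces. In the fourth instar, the summed signal of 8 muscle genes ranged from 334615 to 956187 in green pieces (median 601118) and from 270531 to 876845 in dark pieces (median 588761), and the green sum was higher on 7 of 10 arrays. The sums of 34 cuticular protein genes, which mark the epidermis, ranged from 477411 to 3372390 in green and from 361448 to 3282820 in dark pieces, and 0 of those genes were never well above background. In pieces like these, fewer cells of a type and less RNA per cell cannot be told apart.

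The rule was met by 0.489% of the sequences on the third instar arrays and by 1.5% on the fourth, before the named families were left out. The fold between mean pale and mean dark signal, which chose the sequences and is given without a test, had a median of 2.35 in the third instar, with a range of 2.0 to 4.22. In the fourth instar it had a median of 2.73 and a range of 2.003 to 13.27. The sequences nearest the 2-fold limit were AK401587 (2.00) and AK402996 (2.04) inside it and AK403047 (1.98) and AK402828 (1.95) outside it in the third instar. In the fourth instar they were AK403443 (2.003) and Px-0017 (2.01) inside, and AK401225, similar to CG42339 (1.99), and AK403159 (1.97) outside.

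**Figure D1:**
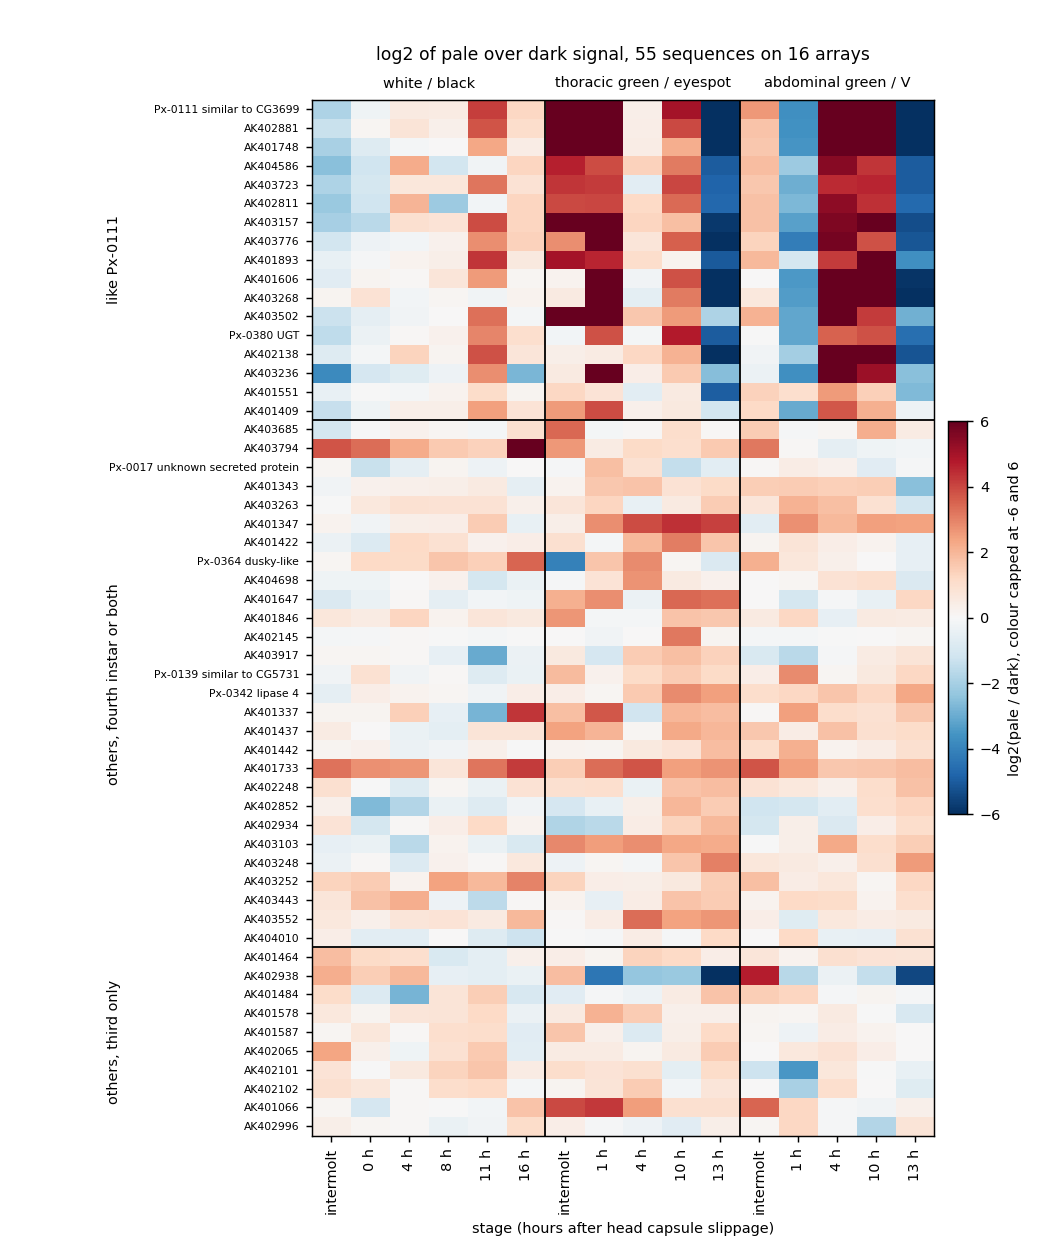
Log2 ratio of pale over dark signal for each of the 55 sequences (rows) on each of the 16 arrays (columns: the third instar, then thorax and abdomen of the fourth instar, each in order of stage), with the color capped at -6 and 6. The 17 upper rows turn together from red (pale higher) to blue (dark higher) at 13 h, and only 6 of the 44 sequences chosen on the fourth instar were higher in green on all 10 of its arrays.

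The mean over stages hid much variation between arrays. Of the 13 sequences chosen on the third instar, 2 gave a higher signal in white than in black on all 6 arrays, namely dusky-like and AK403552. Of the 44 chosen on the fourth instar, 6 gave a higher signal in green than in dark on all 10 arrays: Px-0139, lipase 4, AK401733, AK403252, AK401437 and AK401442. A single array carried more than 50% of the summed pale signal for 11 of the 13 and for 15 of the 44. Without the array of brightest pale signal, the fold was 2 or less for 11 of the 13 and for 21 of the 44, and below 1 for 2 and 3 of them. The probes of a sequence did not always concur: every probe passed for 20 of the 55 sequences, and in 26 sequences with 2 or more probes a single probe did. The pale signal was well above background on every array of the instar for 3 of 13 and 15 of 44, and the dark signal for 3 of 13 and 16 of 44.

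AK402145 owed its place to 1 spot. Its signal was 246000 in thoracic green and 27700 in eyespot on the 10 h array, where the scanner software had marked the spot as an outlier. On the other 9 cryptic arrays it ranged from 1790 to 3710 in green and from 1800 to 4310 in dark pieces. Its 5.18-fold excess in green became 0.979-fold without that array, its other 2 probes had folds of 0.937 and 0.994, and it leaves the set when outlier spots are left out, so that 54 remain.

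The clearest pattern within the set was shared by 17 sequences whose ratio swung between strongly green and strongly dark. They were picked out after their values had been seen, as the members whose log2 ratios over the 10 cryptic arrays correlated with those of Px-0111 above 0.8, and the values are descriptive. The lowest correlation among them was 0.83, and the highest of any other member was 0.51. In green thorax Px-0111 gave a signal of 4900 in the intermolt, 125000 at 1 h, 112 at 4 h, 461 at 10 h and 14.4 at 13 h, against 24.3, 226, 86.4, 14.6 and 9750 in the eyespot. In green abdomen it gave 115, 3240, 34200, 17800 and 14.2 at those stages, against 18.9, 41800, 133, 112 and 5900 in the V-shaped markings. Green was therefore far above dark in the intermolt, at 1 h and at 10 h in the thorax and at 4 and 10 h in the abdomen, and far below it at 1 h in the abdomen and at 13 h in both. The values of 14.2, 14.4, 14.6 and 18.9 were not well above background.

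All 17 sequences were higher in green at 1 h and 10 h in the thorax and at 4 h and 10 h in the abdomen. On both 13 h arrays 0 of 17 were, and at 1 h in the abdomen 1 of 17 was. The median signal over the 17 was 14000 in thoracic green and 220 in eyespot at 1 h, and 11100 in abdominal green and 219 in V-shaped markings at 4 h. At 13 h it was 47.8 in thoracic green and 3690 in eyespot, and 37.7 in abdominal green and 1640 in V-shaped markings. The median log2 ratio thus ran between 6.29 and -5.02, whereas that of all probes stayed between -0.02 and 0.05 on the cryptic arrays. In the thorax both sides were dim at 4 h, with medians of 46.5 in green and 38.7 in eyespot and 12 of 17 higher in green, and at 10 h, with medians of 160 in green and 15.6 in eyespot. On those arrays 0 of 17 exceeded 1000 in either piece.

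**Figure D2:**
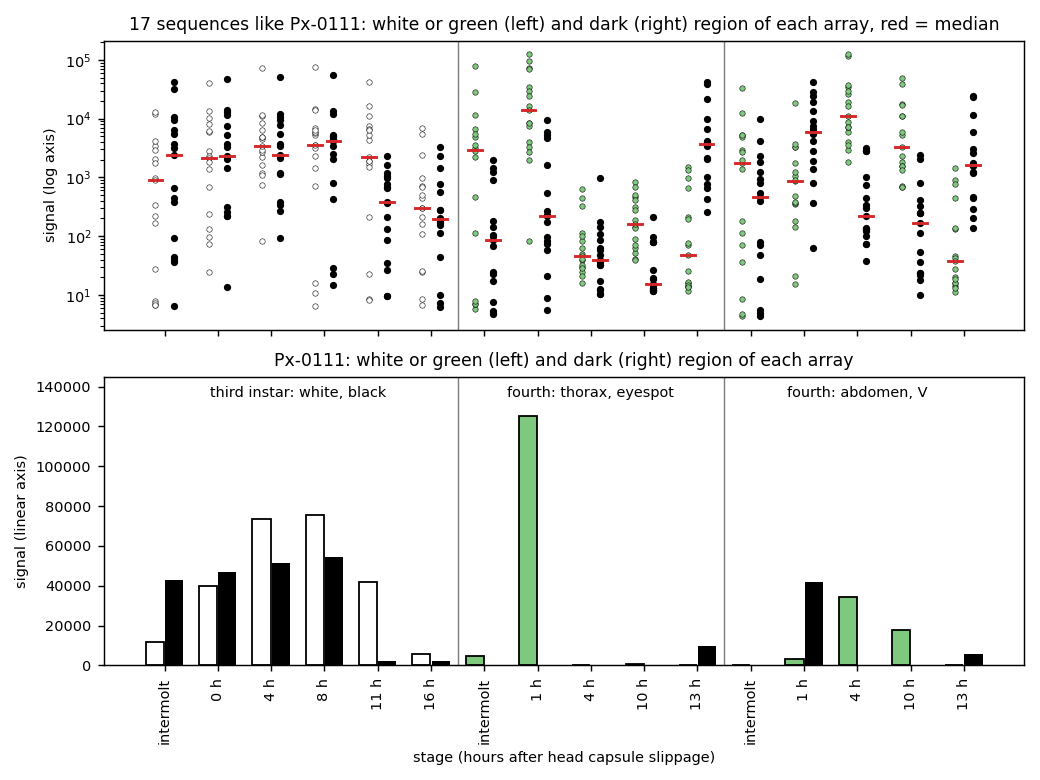
Upper panel, signal (log axis) of the 17 sequences that follow Px-0111 in the pale (left) and the dark (right) piece of each array by stage, with red bars for the medians; lower panel, signal of Px-0111 alone (linear axis). The medians are 14000 in thoracic green and 220 in eyespot at 1 h, and 47.8 in thoracic green and 3690 in eyespot at 13 h.

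The glucosyl/glucuronosyl transferase Px-0380 belonged to this group. Its signal was 73900 in thoracic green and 5210 in eyespot at 1 h, 37700 in abdominal green and 3230 in V-shaped markings at 4 h, and 11200 in abdominal green and 790 in V-shaped markings at 10 h. At 1 h in the abdomen it was 3250 in green and 28000 in V-shaped markings, and at 13 h it was 208 in thoracic green and 6590 in eyespot, and 130 in abdominal green and 3010 in V-shaped markings. In the intermolt it was not well above background in any of the 4 regions. Its mean log2 ratio of 0.30 ± 3.63 (SD, n = 10 arrays) does not describe any of its stages, and the same holds for Px-0111, with 1.83 ± 6.95. The 13.3-fold excess of AK403776, the largest in the set, was 4.48-fold without the thoracic array at 1 h, and that of Px-0111 was 1.05-fold. AK403776 had only 1 probe, and 1 of its spots was marked as an outlier, though it stayed in the set when outlier spots were left out.

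In the third instar the same 17 sequences moved less. White was higher than black in 1 of 17 in the intermolt, 3 at 0 h, 11 at 4 h, 14 at 8 h, 14 at 11 h and 15 at 16 h. Their median signal was 891 in white and 2390 in black in the intermolt, and 2230 in white and 378 in black at 11 h, when 13 of 17 exceeded 4-fold. Px-0111 gave 41800 in white and 2320 in black at 11 h, but 11900 in white and 42900 in black in the intermolt. Genes of other tissues were followed for comparison. Over the 10 cryptic arrays the log2 ratio of the summed muscle genes lay between -0.76 and 0.31, with a correlation of -0.00 with that of Px-0111, and that of 34 cuticular protein genes between -0.26 and 0.74, with a correlation of 0.41. For the larval serum protein, a product of the fat body, the log2 ratio ran from -2.03 to 1.44, with a correlation of 0.20, and for the basement membrane gene from -2.001 to 1.44, with a correlation of 0.32. The thoracic and abdominal arrays of a stage share that stage, and the part of tissue composition in the pattern was not tested. Without the abdominal array at 1 h and both arrays at 13 h, a choice made after seeing the data, the rule gave 59 sequences, of which 46 were among the 55.

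A second kind of sequence was green at nearly all stages. AK401733 was an example: in thoracic green its signal was 618, 2670, 1560, 6170 and 10400 from the intermolt to 13 h, against 224, 263, 113, 1120 and 1630 in the eyespot. In abdominal green it was 3100, 2040, 1410, 8390 and 12300, against 230, 368, 465, 2690 and 3430 in the V-shaped markings. Green exceeded dark on 10 of 10 arrays, by 4.62-fold in the means and by 2.50 ± 0.88 on the log2 scale (SD, n = 10). AK401347 peaked at 4 h, with 413000 in thoracic green and 27600 in eyespot, and with 117000 in abdominal green and 30500 in V-shaped markings. Its fold was 9.14, and only in the intermolt of the abdomen was green the lower, with 46.2 against 71.7.

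Lipase 4 was a gene of the end of the molt. Up to 4 h no sample exceeded 50.3. At 10 h its signal reached 813 in thoracic green and 114 in eyespot, and 1350 in abdominal green and 574 in V-shaped markings. At 13 h it reached 16500 in thoracic green and 2970 in eyespot, and 20800 in abdominal green and 4130 in V-shaped markings. The excess in green was 5.03-fold and held on 10 of 10 arrays, with a mean log2 ratio of 1.49 ± 0.88 (SD, n = 10), though 5 of those 10 green signals were not well above background. AK401437 and AK401442 were likewise green on every array and brightest at 13 h, with 85700 in thoracic green and 21300 in eyespot for AK401437, and 104000 in thoracic green and 28400 in eyespot for AK401442. Px-0139 was green on 10 of 10 arrays as well, with a mean log2 ratio of 1.12 ± 0.84, but 2 of its 15 probes passed the rule and the folds of all 15 ran from 1.45 to 2.29.

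AK401647 gave its signal mainly in the thorax, with 7690 in thoracic green and 716 in eyespot at 10 h, and 6570 in thoracic green and 671 in eyespot at 13 h. In the abdomen it reached at most 247 in green and 104 in V-shaped markings, both at 13 h. On the third instar arrays it was not well above background in any sample. The difference between thorax and abdomen did not pass the tests below.

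The stage of the peak in the fourth molt was not itself a criterion of the rule. The rule did use the mean of the same green signals over the stages, which is weighted to the brightest stage, so timing is not independent of the choice. Intermolt and 1 h also lie on another slide than the later stages. By the mean of thoracic and abdominal green, 8 of 44 were highest in the intermolt, 8 at 1 h, 9 at 4 h, 4 at 10 h and 15 at 13 h. Among all 4111 probes of the microarray with a mean green signal above 1000, 28.6% peaked in the intermolt, 27.8% at 1 h, 19.1% at 4 h, 8.3% at 10 h and 16.3% at 13 h. The dark pieces of the same 44 sequences were highest at 10 or 13 h in 25 cases and the green pieces in 19.

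Changes of the green level between stages were tested with limma over all probes, with thorax and abdomen as the replicates. The green signals tested also entered the rule, so the shares of the 55 are not independent of the choice. At 10 h relative to 4 h the level rose in 26 of the 55 sequences (47.3%) and fell in 5 (9.09%), against 21.8% and 23.4% of all probes. At 13 h relative to 4 h it rose in 27 (49.1%) and fell in 7 (12.7%), against 23.9% and 26.9% of all probes. At 1 h relative to the intermolt 9 were higher (16.4%) and 19 lower (34.5%), against 23.8% and 31.5% of all probes. Restricted to the bright probes, which the rule required, the percentages of probes that rose and fell were 24.6% and 30.9% at 10 h, 27.5% and 35.1% at 13 h, and 27.5% and 37.1% at 1 h. Of the 55, 24 were higher at both late stages than at 4 h and 5 were lower at both, while 15 were both lower at 1 h than in the intermolt and higher at 13 h than at 4 h. The 26 rises at 10 h include AK402938 and AK402996, whose green pieces were not well above background at 10 h or at 4 h. AK402938 had 46.7 in thoracic and 17.9 in abdominal green at 10 h, against 10.2 and 11.7 at 4 h. AK402996 had 50.2 and 31.0, against 9.75 and 11.1, so neither can be read as a rise.

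Several sequences without a name changed by more than 6 on the log2 scale. AK402248 had 58800 in thoracic and 36900 in abdominal green at 10 h, against 60.3 and 32.5 at 4 h, a difference of 10.13 on the log2 scale (SE 0.29, limma adjusted p = 1.37e-05). It had 45.4 in thoracic and 28.8 in abdominal green at 1 h, against 9830 and 7700 in the intermolt, and so fell by 8.22 at the start of the molt before its late rise. These are values of the probe that represents it: over all its 5 probes, of which 3 had mean green signals of only 17.1 to 102, the late difference was 4.44 (SE 0.71) and the early one -2.80. AK402852 had 151000 and 170000 at 13 h, against 77.6 and 44.7 at 4 h, a log2 difference of 11.46 (SE 0.46). AK403248 had 8050 and 8450 at 13 h, against 81.1 and 120 at 4 h, a log2 difference of 6.44 (SE 0.22). These values rest on 2 green pieces per stage, which differed from each other far less than the stages did. For AK402248 only 1 of the 2 pieces was well above background at 4 h, and likewise at 1 h, so the sizes of its changes are uncertain. The late rises were not limited to green. Over the 10 cryptic arrays the log2 ratio of green over dark ran only from -0.41 to 1.85 for AK402248. It ran from -1.19 to 2.00 for AK402852 and from -0.30 to 3.03 for AK403248. The dark pieces thus changed with stage as well.

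Where the dimmer stage was not well above background in either piece, the change is a bound. AK401337 was at least 3300-fold higher at 10 h than at 4 h, with 173000 in thoracic and 100000 in abdominal green at 10 h against 11.6 and 25.6 at 4 h. Lipase 4 was at least 25.9-fold higher at 10 h and at least 449-fold higher at 13 h than at 4 h. AK402934 was at least 87.5-fold higher at 10 h and 177-fold at 13 h. In such a bound, the dim stage is set on each array at the lowest signal of any probe well above background there, or at its own signal if higher. AK403443, with 6.61 and 13.5 at 1 h against 1620 and 1230 in the intermolt, was at least 55.9-fold lower at 1 h. Bounds of this kind applied to 13 of the 28 calls at 1 h, to 8 of 31 at 10 h and to 11 of 34 at 13 h.

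**Figure D3:**
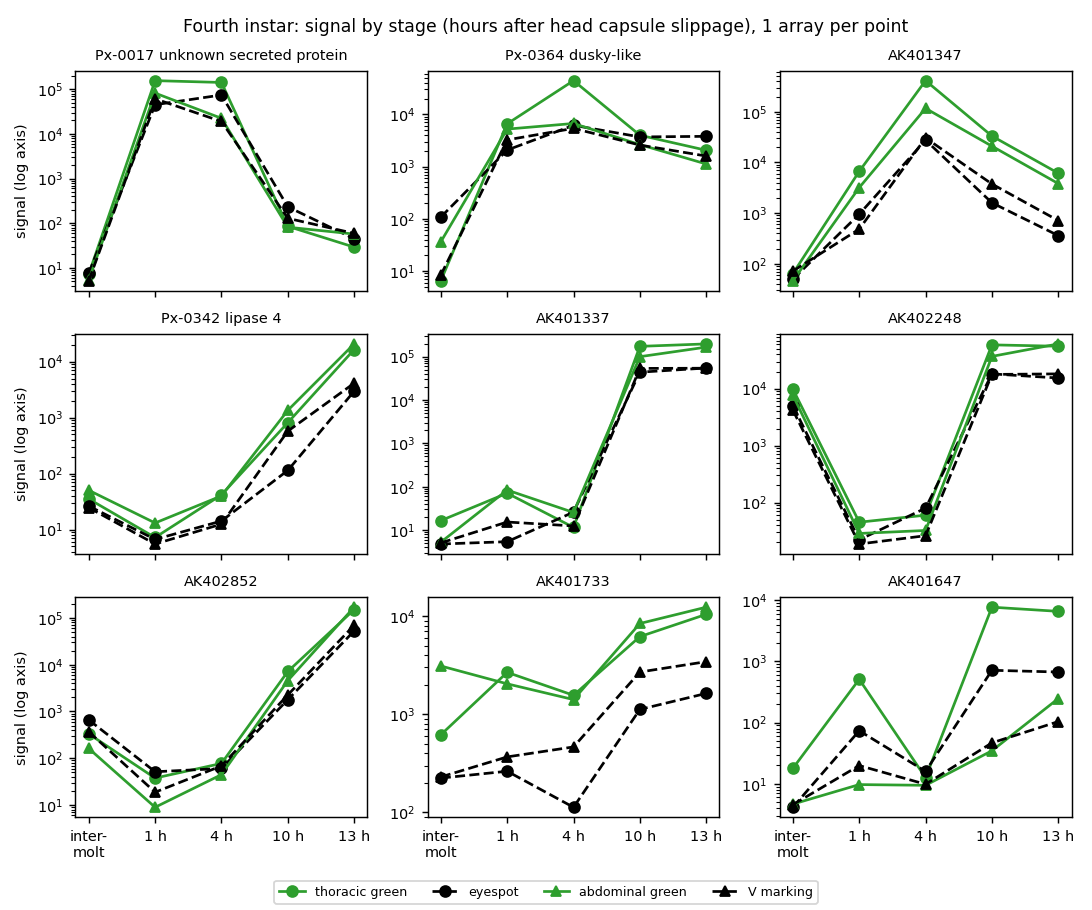
Signal (log axis) of 9 sequences in green and dark pieces of the thorax (circles) and abdomen (triangles) of the fourth instar by stage, 1 array per point. Lipase 4, AK401337 and AK402248 are bright at 13 h, with 16500 and 20800 for lipase 4 in thoracic and abdominal green, and Px-0017 is bright at 1 and 4 h.

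An opposite course was taken by Px-0017, which was an early gene. Its signal was 156000 in thoracic and 82100 in abdominal green at 1 h, against 7.27 and 5.38 in the intermolt, at least 3057-fold higher. At 4 h it was 142000 and 22400, and at 10 h it was 85.4 and 81.6. The marking mattered less than the stage, since the eyespot and V-shaped pieces gave 45100 and 61100 at 1 h. A single probe of its 11 passed the rule, the folds of the 11 ran from 1.32 to 2.01, and in the third instar the mean of the passing probe was 15695 in white and 24236 in black. AK401347 shared the early rise, by 6.09 on the log2 scale at 1 h relative to the intermolt (SE 0.33), and was lower at 13 h than at 4 h by 5.45.

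Dusky-like was 1 of the 2 sequences chosen in both instars. In white epidermis its signal was 5.46, 2280, 43500, 26500, 64400 and 622 from the intermolt to 16 h, against 5.10, 992, 19600, 8270, 23600 and 55.6 in black. White was higher on 6 of 6 arrays, by 2.61-fold in the means and by 1.51 ± 1.11 on the log2 scale (SD, n = 6). Each side was well above background on 5 of the 6. Dusky-like did not pass the test between pale and dark pieces in either instar (limma adjusted p = 0.214 in the third and 0.788 in the fourth). In thoracic green it was 6.53, 6580, 44100, 3980 and 2050, against 108, 2070, 6160, 3690 and 3790 in the eyespot. In abdominal green it was 36.3, 5210, 6680, 2630 and 1120, against 8.37, 3240, 5380, 2580 and 1590 in the V-shaped markings. The 2.53-fold excess in green was thus carried by the thorax at 4 h and was 1.26-fold without that array, and at 13 h both green pieces were the lower. Its green level was higher at 1 h than in the intermolt by 8.26 on the log2 scale (SE 1.04, limma adjusted p = 0.00116). Only 1 of its 2 intermolt green pieces was well above background, so the size of this difference is uncertain.

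AK403552 was the other sequence chosen in both instars, and it was a late one. At 16 h it gave 20700 in white and 5380 in black, and before that no sample of the third instar exceeded 291. At 13 h of the fourth molt it gave 12000 in thoracic green and 1910 in eyespot, and 7740 in abdominal green and 5300 in V-shaped markings. Green was higher on all cryptic arrays but that of the abdomen at 1 h, with 21.3 against 35.7.

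The remaining sequences of the third instar were largely set by 1 stage. Of the 13, the white signal was highest at 11 h for 8, at 16 h for 3 and in the intermolt for 2. The arrays of the third instar also lie on both slides and were not scaled to one another. The stage of a peak there cannot be fully told apart from the slide. Among the 4081 bright probes of that instar, 30.8% peaked in the intermolt, 20.8% at 0 h, 8.3% at 4 h, 12.4% at 8 h, 18.8% at 11 h and 8.9% at 16 h. At 11 h AK402101 gave 161000 in white and 51100 in black, and AK401578 gave 270000 in white and 118000 in black. AK402102 gave 147000 and 65000 there, AK402065 gave 133000 and 45300, AK401587 gave 60800 and 29100, AK401484 gave 48300 and 17100, and AK402138 gave 5250 and 368, in white and in black in each case. At 16 h AK401066 gave 8250 in white and 2540 in black, and AK402996 gave 6810 in white and 3160 in black. In the intermolt AK402938 gave 16800 in white and 3740 in black, and AK401464 gave 11000 in white and 3070 in black. Without the 11 h array, 6 of the 13 no longer passed. The 11 h array was also that on which the muscle genes were highest in white, with a summed signal of 2125580 in white and 928785 in black, and their part in these ratios was not tested.

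**Figure D4:**
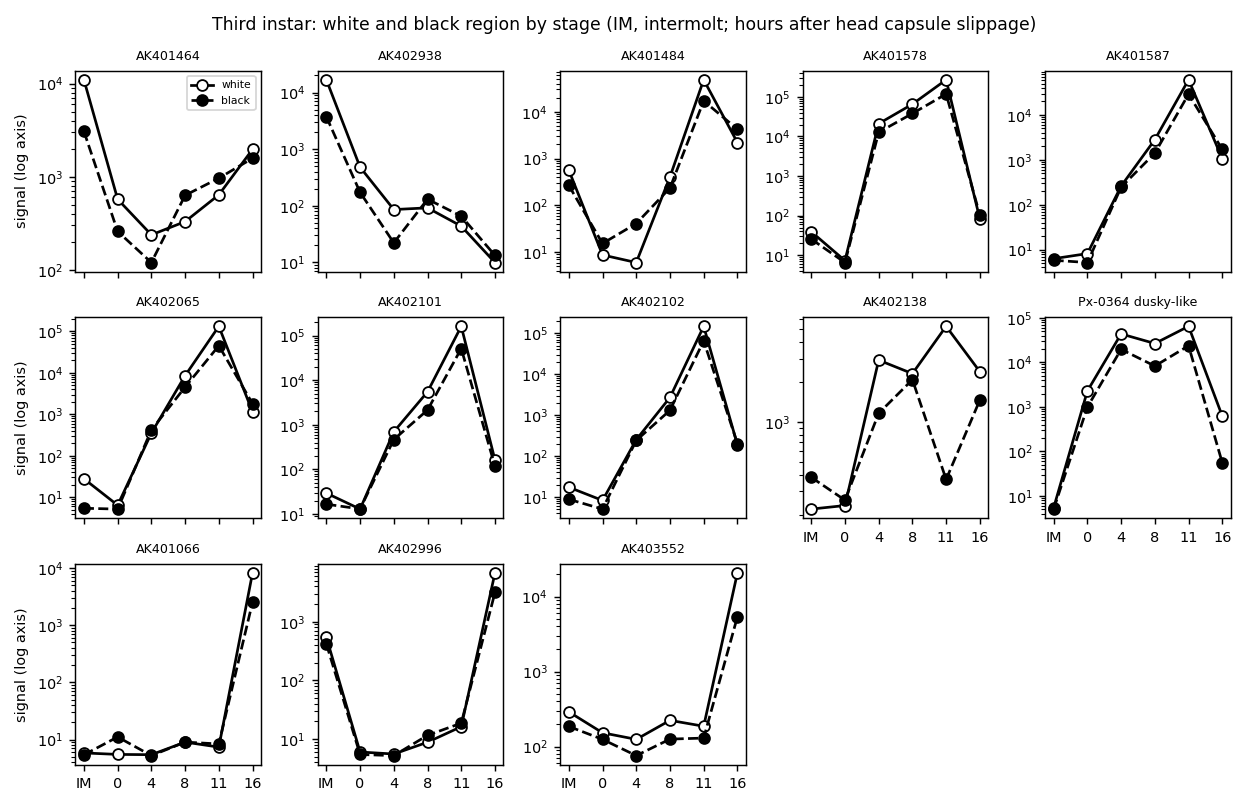
Signal (log axis) in white and black epidermis of the third instar for the 13 sequences chosen on those arrays, by stage, 1 array per point. AK402101 peaks at 11 h with 161000 in white and 51100 in black, and AK403552 at 16 h with 20700 in white and 5380 in black.

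Whether a sequence chosen in one instar also differed in the other was tested with limma on the log2 ratios. The rule had been applied to those arrays too. A sequence that also passed there was counted under both, and one that passed the reverse rule there would have been left out. The sequences tested had therefore not passed there, a condition that the shares of all probes do not carry. Of the 42 chosen on the fourth instar only, 3 were higher in white than in black in the third (7.14%) and 0 lower, against 2.13% and 1.18% of all probes. The 3 were AK401733 (log2 ratio 2.80, SE 0.38, adjusted p = 0.00253), AK403252 (1.73, SE 0.29, adjusted p = 0.00976) and AK403794 (3.06, SE 0.55, adjusted p = 0.0130), each higher in white on 6 of 6 arrays. Their black signals were low, and well above background on only 2, 2 and 1 of the 6 arrays. All 3 calls were lost when only the white and black arrays were fitted (adjusted p = 0.0734, 0.0996 and 0.0996, limma) and under normexp with loess, where the log2 ratios were 1.02, 0.44 and 1.01. AK401733 gave 277, 155, 42.6, 16.3, 219 and 766 in white from the intermolt to 16 h, against 29.2, 23.4, 6.80, 9.81, 23.3 and 41.8 in black. Over the 42 sequences the median log2 ratio in the third instar was 0.18, with 28 positive, and that of all probes was 0.02. The other 39 did not pass the test.

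Of the 11 chosen on the third instar only, 1 was higher in green than in dark pieces of the fourth (9.09%) and 0 lower, against 6.83% and 5.31% of all probes. That sequence was AK401066, at 1.74 on the log2 scale (SE 0.40, adjusted p = 0.0125, or 0.0520 when only the cryptic arrays were fitted, limma). In the thorax it gave 249000 in green and 129000 in eyespot at 10 h, and 402000 in green and 205000 in eyespot at 13 h. In the abdomen it gave 161000 in green and 185000 in V-shaped markings at 10 h, and 368000 in green and 295000 in V-shaped markings at 13 h. Its ratios were larger at earlier stages, with 215 in thoracic green and 11.2 in eyespot at 1 h, the eyespot not well above background, and in the intermolt 3030 in thoracic green and 196 in eyespot, and 986 in abdominal green and 86.5 in V-shaped markings. Over the 11 sequences the median was 0.32 with 9 positive, and the median of all probes was 0.03.

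**Figure D5:**
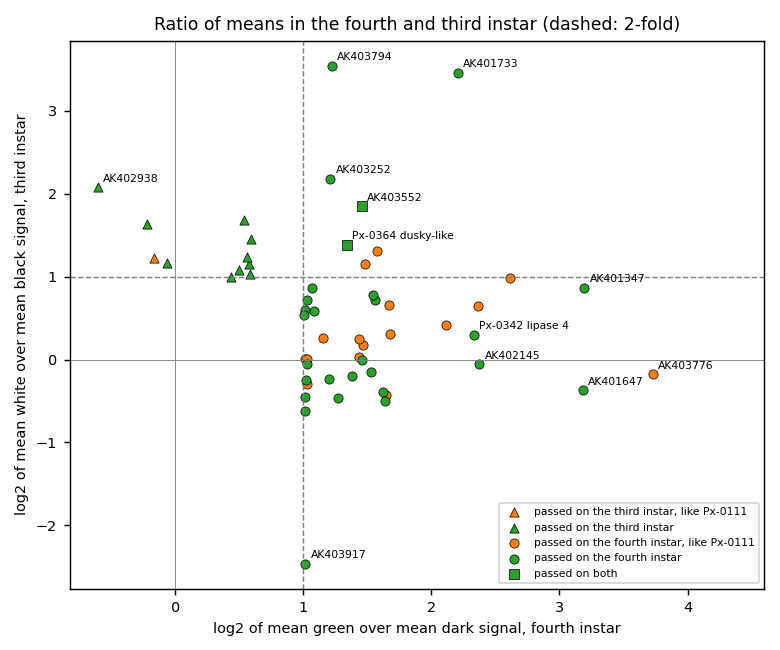
Log2 ratio of mean green to mean dark signal in the fourth instar (horizontal axis) and of mean white to mean black signal in the third instar (vertical axis) for the 55 sequences, with the 2-fold limits dashed. Dusky-like and AK403552 were chosen in both instars, and AK401733 lies well above 2-fold in both but was below the signal minimum in the third.

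White and green could be set beside each other only across arrays, which were not scaled to one another, and the choice on 1 instar tilts the comparison toward that instar. Among the 42 sequences chosen on the fourth instar only, the median log2 ratio of mean white to mean green signal was -2.19. Green exceeded 2-fold white in 29 of them and white exceeded 2-fold green in 2. Among the 11 chosen on the third instar only, the median was 0.88, with 5 above 2-fold in white and 2 in green. For the 4467 probes bright in either color the median was 0.07, with 9.6% above 2-fold in white and 14.8% in green. Several of the sequences gave little signal in white epidermis. The mean signal was 40.0 in white and 3965 in green for lipase 4, 7.86 in white and 1511 in green for AK401647, and 194 in white and 63621 in green for AK401337. AK403103 had 11.6 in white and 3203 in green. The reverse was milder: AK402938 was 7.38-fold brighter in white than in green, AK402101 was 4.65-fold brighter and dusky-like 3.16-fold.

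Green thorax and green abdomen were compared over the 5 stages of the fourth instar, both for the ratio to the dark piece and for the green level. With limma, 0 of the 55 sequences passed for the ratio, and 0.0% of all probes did. At an unadjusted p under 0.05 there were 10 of 55 sequences and 563 of 8138 probes, and the lowest adjusted p of a member was 0.544. For the green level the count was again 0 of 55 and 0.0% of all probes, with 9 sequences and 916 probes at an unadjusted p under 0.05. The lowest adjusted p was 0.108, for AK403794, whose thoracic level was higher by 1.64 on the log2 scale (SE 0.18). It gave 3070, 1110, 466, 1070 and 3080 in thoracic green from the intermolt to 13 h, against 1480, 271, 133, 203 and 1040 in abdominal green, higher at all 5 stages. AK401647 differed by 3.99 (SE 1.06), with an adjusted p of 0.292.

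Few named sequences of related function passed the test between pale and dark pieces. Their counts stand beside the 6.83% of all probes that were higher and the 5.31% that were lower in green, and the 2.13% higher and 1.18% lower in white. Of 3 sequences with a zona pellucida domain, dusky (Px-0224) was higher in green by 0.33 on the log2 scale. Dusky-like (Px-0364), a member of the set, passed in neither comparison. A second dusky-like sequence (Px-0137) had -0.35 in the mimetic and -0.53 in the cryptic comparison and passed in neither. Of 5 conjugation and detoxification enzymes, which modify small molecules for storage or removal, glutathione S transferase D8 was lower in green by 0.30 and 0 were higher. Of 8 chitin enzymes and binding proteins, which build and remodel the cuticle's polysaccharide, 1 was higher and 1 lower in green, and 0 passed in white against black. Of 33 secreted proteins of unknown function, 1 was lower in white than in black, and in green 2 were higher and 1 lower. The last was Px-0245, which was lower in green by 1.22 and in white by 1.28. Of 3 lipid enzymes, lipase 4 alone passed, in the comparison on which it was chosen.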

How the data were processed

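Total RNA of paired epidermal pieces was labelled with Cy3 (white or green) and Cy5 (black, eyespot or V-shaped) and hybridized to 16 Agilent arrays with 2 colors, on 2 slides of 8. The deposited files are scanner output, per the file headers of Feature Extraction version 9.5.3.1. The signals deposited by the authors are intensities on a linear scale, corrected for background and for dye within an array but not scaled between arrays. The deposited log10 ratios run from dark over pale. The series table of the authors holds the same log10 ratios, to within 0.005.

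Members and lists were chosen with earlier results of these data known. A sequence was represented by its passing probe, and gene names came from the supplementary tables of the study. Sequences named with values were all those chosen on the third instar, all with a gene name, the 8 others of largest fold, the 5 of smallest adjusted p under 0.05 in each limma test, and those nearest the threshold. Where others were named, they were chosen after their values were seen. Ratios of the 8138 probes were fitted in limma 3.58.1 (R 4.3.3), with 1 mean per comparison and the cryptic effect as the mean of thorax and abdomen. Differences between thorax and abdomen had stage as a term, and green levels were scaled to the 75th percentile of each array and tested between stages with thorax and abdomen as replicates. P-values were adjusted by Benjamini-Hochberg over all probes, with 0.05 as the threshold, and measure the spread between stages or regions. Spots marked as outliers (188 of 130208) were used in choosing the members and left out of the tests, so AK402145 was fitted without its 10 h thoracic value. The tests were checked on simulated data: of 200 probes shifted by 2 on the log2 scale, 98% were recovered for the mimetic ratio, 99.5% for the cryptic ratio, 77.5% and 76% for thorax against abdomen (ratio and level), and 55.5% for the level at 10 h against 4 h, over 8138 probes each. The shifted probes were drawn at random from all probes, each with its own spread. The rates need not hold for sequences whose ratios vary as widely as those of Px-0111 (SD 6.95), so a sequence that did not pass may still differ. The number of arrays limits the precision. Other code used Python 3.11.15, numpy 2.4.6, pandas 2.3.3 and matplotlib 3.10.9.

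Alternatives tried were other scalings, folds, signal minimums, means, probe rules, background corrections, blocks and the removal of each stage or array.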

Additional observations from a re-analysis of the deposited data

Results flagged for a closer look

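The log2 ratios of pale over dark were searched for single arrays that stood apart from the others by Dixon's criterion. Of 102 groups of arrays (34 named sequences in 3 comparisons), 12 held 1 such array. Chance meets the criterion in about 1 of 20 groups, but only where the groups were not chosen on their values. These sequences were chosen on the same signals, so the count cannot be set against that rate. In white against black, AK401893 had 4.29 at 11 h, against -0.43 to 0.58 on the other 5 arrays, AK403552 had 1.94 at 16 h, and AK402145 had 0.0764 at 4 h within a narrow range. In thoracic green against eyespot, AK402138 had -6.27 at 13 h, against 0.35 to 2.10 on the other 4 arrays, AK402101 had -0.581 at 10 h, and AK402065 had 1.52 at 13 h. AK402145 had 3.15 at 10 h, where the scanner software had marked the spot as an outlier. In abdominal green against V-shaped markings, AK403794 had 3.18 and AK401347 had -0.634 in the intermolt, AK401464 had 0.210 and AK403552 had -0.745 at 1 h, and AK403248 had 2.55 at 13 h, against 0.31 to 0.95 on the other 4 arrays. AK401893 and AK402138 are among the 17 sequences that follow Px-0111. In that group 13 of 17 exceeded 4-fold in white at 11 h, and 17 of 17 were higher in the eyespot at 13 h.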

How the results depend on the processing

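The rule gave 55 sequences. With a fold of 3 it gave 21 and where every probe had to pass 20, all among the 55, and with a geometric mean over stages it gave 17, of which 12 were among the 55; other scalings, signal minimums and outlier handling gave 44 to 60, and leaving out each stage in turn 48 to 60. In the instar in which a sequence had not passed, the count of calls was 4. It was 2 with normexp and loess, and 2 among probes well above background in both channels on at least 50% of the arrays. When only the arrays of the comparison were fitted it was 1, and with each array left out 4 to 5. That 1 call was not among the 4, all of which were lost in that fit, and at most 1 of the 2 with normexp and loess was. The count stayed 4 with slide as a term, over all probes of a sequence and from the series table. Over all probes, AK403794 was not among the calls. With stage as a random replicate block (correlation 0.27) the count also stayed 4. Deviations of thorax and abdomen at a stage correlated between -0.18 and 0.46, so the stage does not pair the ratios closely, and without the stage term the count for thorax against abdomen stayed 0. That count, for ratio and level, was 0 to 0 when each stage was left out. The stage changes gave 28 to 30 calls at 1 h, 30 to 33 at 10 h and 34 to 35 at 13 h. With each of the 10 cryptic arrays left out, an alternative added after seeing the data in which the lone piece of a stage is assumed to vary like the others, they gave 21 to 29, 23 to 31 and 27 to 37 calls. Scaling set the median change of all probes at 1 h to -0.21 on the log2 scale. Of 284 settings for single sequences, 275 kept their call and 9 lost it, all in the same direction: AK401733, AK403252 and AK403794 under normexp with loess (log2 1.02, 0.44 and 1.01), these 3 and AK401066 when only the comparison's arrays were fitted (adjusted p = 0.0734, 0.0996, 0.0996 and 0.0520, limma), AK403794 over all its probes (2.37, adjusted p = 0.0534), and AK402938 over all 4 regions at 1 h (-1.63, adjusted p = 0.269). The causes were not tested.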

Other observations

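The ratio pattern of Px-0111 was not limited to the 17 sequences described above. Over all 3272 sequences, 27 had a probe whose log2 ratios on the 10 cryptic arrays varied with an SD above 1, had a mean signal above 300 and correlated with those of Px-0111 above 0.8, and 10 of the 27 were outside the set of 55. Only 1 of those 10 had a gene name, scarface (Px-0258, correlation 0.90), which in Drosophila encodes an extracellular serine protease homolog without the active site. AK402828, which missed the third instar threshold at 1.95-fold, followed Px-0111 with a correlation of 0.99. The thoracic and abdominal arrays share their 5 stages, and these values were found after the data had been seen.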
